A study of Mus musculus with 2 samples.

Results

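The axon guidance genes of the mouse glomerulus were described as a set of 69 gene symbols out of 31058 entries in the feature list. The members were chosen by symbol: all entries of the semaphorin (Sema), plexin (Plxn), ephrin-A and ephrin-B (Efna, Efnb), Eph receptor (Epha, Ephb), Slit, Robo, netrin (Ntn) and Unc5 families, with 1 entry left out. They held 33 ligands (19 semaphorins, 5 ephrin-A, 3 ephrin-B, 3 netrins and 3 Slits), 31 receptors (9 plexins, 9 EphA, 5 EphB, 4 Robo and 4 Unc5) and 5 other entries, namely 3 antisense transcripts of Plxna4, the Unc5-like gene Unc5cl and Unc50, which is no Unc5 receptor. Cells from isolated kidney glomeruli of 2 mice, 1 titled female and 1 titled male, were counted by droplet-based 3′ sequencing, and each mouse gave 1 library. Both mice carried Pax2.rtTA;TetO.Cre;R26.Confetti on a C57Bl/6 background, were given doxycycline at 19 days of age and were killed at 30 days of age. In this genotype a doxycycline-dependent transactivator driven by Pax2 switches on Cre, which recombines a multicolour reporter. The labels call the mice healthy and the series calls them wild type, and both libraries share the transgenes and the doxycycline. Every level below is given for the library labelled female first and the library labelled male second, in CPM, the usual scaling of a gene's UMI count to the total UMI count of all cells of that class and library; UMIs, unique molecular identifiers, count captured transcripts.

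The ligand and receptor systems of axon guidance steer growing axons by attraction and repulsion, and the same molecules act between cells outside the nervous system. Semaphorins signal through plexins, with neuropilins as co-receptors for most secreted members. Ephrins stay on the membrane of one cell and bind Eph receptor kinases on its neighbour, so that signals can pass both ways. Secreted Slits bind Robo receptors, and netrins bind Unc5 and Dcc receptors or, in the case of netrin-4, laminins of the basement membrane. In the kidney, Slit2 and Robo2 are known for placing the ureteric bud, Robo2 and ephrin-B1 for their place at the podocyte slit diaphragm, and ephrin-B2 with EphB4 for the division of arterial from venous endothelium.

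Stretches before the start of 4 members are shown because 2 of them, Robo4 and Sema7a, had their highest level in glomerular endothelial cells and the others, Sema3g and Efnb1, in podocytes. They were chosen after their levels were seen and come from the RefSeq promoter table (build GRCm38.p6), which holds 58 of the 69 members. All are on the plus strand, run 5′ to 3′ and end before the annotated gene start: Robo4 at chr9:37401722-37401896, Sema7a at chr9:57939862-57940111, Sema3g at chr14:31217623-31217859 and Efnb1 at chrX:99135811-99136060. Capitals mark matches to CAGGAA (or its reverse complement TTCCTG), a core bound by ETS factors, and to the E-box CAGCTG. The promoter entry of Robo4 also holds a CAGGAA match. That match lies past the end of the stretch shown, which stops at the annotated gene start, and so it is not printed.
Robo4: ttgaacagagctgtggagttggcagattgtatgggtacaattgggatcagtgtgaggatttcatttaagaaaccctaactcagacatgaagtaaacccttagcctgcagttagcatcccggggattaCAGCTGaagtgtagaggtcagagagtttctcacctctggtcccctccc
Sema7a: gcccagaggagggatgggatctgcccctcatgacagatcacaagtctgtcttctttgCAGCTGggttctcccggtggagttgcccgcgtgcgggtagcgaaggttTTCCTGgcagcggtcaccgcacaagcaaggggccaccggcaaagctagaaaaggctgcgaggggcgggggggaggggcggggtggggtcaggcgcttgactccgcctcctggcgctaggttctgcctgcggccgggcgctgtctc
Sema3g: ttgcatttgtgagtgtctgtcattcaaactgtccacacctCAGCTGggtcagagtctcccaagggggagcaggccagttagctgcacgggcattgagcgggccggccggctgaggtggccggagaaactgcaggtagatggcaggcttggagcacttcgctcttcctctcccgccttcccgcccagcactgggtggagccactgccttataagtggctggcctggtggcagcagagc
Efnb1: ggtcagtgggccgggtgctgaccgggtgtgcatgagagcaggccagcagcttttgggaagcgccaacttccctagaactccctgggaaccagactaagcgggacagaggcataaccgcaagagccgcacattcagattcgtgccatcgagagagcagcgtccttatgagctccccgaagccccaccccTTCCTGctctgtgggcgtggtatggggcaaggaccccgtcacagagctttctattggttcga
On both strands of the 250 bases before the start in the promoter table, CAGGAA was found in 11 of the 58 members (19.0%) and in 25.4% of all 27025 promoters. CAGCTG was found in 9 members (15.5%) and in 12.8% of all promoters, and the other ETS core CCGGAA in 7 members (12.1%) and in 12.2%. The core GCGTGGG, bound by EGR and WT1 factors, was found in 8 members (13.8%) and in 4.20% of all promoters. Among the members named by rule (given below) with a promoter entry, it was found in 0 of 6 for podocytes. The number was 1 of 4 for glomerular endothelium, 1 of 3 for parietal cells and 0 for each other class. Matches are a description of the letters only.

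The libraries held 67648465 and 57841860 UMIs in 5233 and 4974 barcodes, of which 4909 and 4442 cells were kept, with a median of 10672 and 9616 UMIs per cell. Xist was at 0.621 and 1426 CPM and the Y-linked genes summed to 201 and 0.0346 CPM, opposite to the sample titles, and so the libraries are called by their labels only. The 2 libraries shared 10 barcodes. Clusters built without the member genes were named from markers as podocyte-like (3474 and 2830 cells), mesangial-like (240 and 175), glomerular endothelial-like (130 and 104), arterial endothelial-like (67 and 68), parietal epithelial-like (75 and 49), smooth muscle or renin-like (44 and 62), thick ascending limb-like (61 and 90) and proximal tubule-like (10 and 22), the last too few to test. Each class carried its own defining markers, such as Synpo at 1614 and 1644 CPM in podocytes, Akap12 at 2607 and 2922 in parietal cells, Itga8 at 1447 and 1650 in mesangial cells, Ehd3 at 3155 and 2141 in glomerular endothelium and Umod at 5320 and 4387 in the thick ascending limb. The arterial class rested on Fbln5 (831 and 647 CPM) and Sox17 (731 and 580), while Gja5 was low there (33.6 and 97.8), and its glomerular endothelial markers summed to more (2255 and 2516 CPM) than its arterial ones (1931 and 1631). The thick ascending limb class also held distal convoluted tubule transcripts. A further 1850 cells (19.8%) in 4 clusters stayed unnamed. All 12 podocyte markers were detected in every class, and their summed level in the other 6 tested classes was 5.52% to 26.7% of that in podocytes. The share depended on the markers used: by 2 of the 12 alone it was 2.27% and 3.42% in arterial endothelium. In glomerular endothelium it was 15.5% and 21.6% by those 2. A member was therefore counted as present in a class only at 20 CPM or more in both libraries and above podocyte carry-over. Carry-over here is the podocyte level of the member times the share of all 12 markers, and presence was not counted with the share of the 2.

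By that rule the parietal class held 20 members, the glomerular endothelial 19, the arterial endothelial 18, the mesangial 16, the podocyte 13, the smooth muscle or renin 13 and the thick ascending limb 12. The split between ligands and receptors differed from class to class: 3 ligands and 12 receptors were present in mesangial cells, 11 ligands and 6 receptors in arterial endothelium, 10 and 8 in glomerular endothelium, 9 and 10 in parietal cells, 6 and 6 in podocytes, 5 and 7 in smooth muscle or renin cells and 7 and 4 in the thick ascending limb. Sema5a, a membrane-bound semaphorin, and Unc50, which is no guidance gene, were present in all 7 classes. Efnb2 and Plxnb2 were present in 6 classes, 7 members in 1 class and 31 members in none. Among the 31, 4 had no UMI in any kept cell (Plxnb3, Epha8, Plxna4os3 and Ntn5), and 10 members had 5 UMIs or fewer. Because 3′ counting yields UMIs that are not scaled to transcript length or capture, levels are compared between classes within a gene and not between genes.

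**Figure D1:**
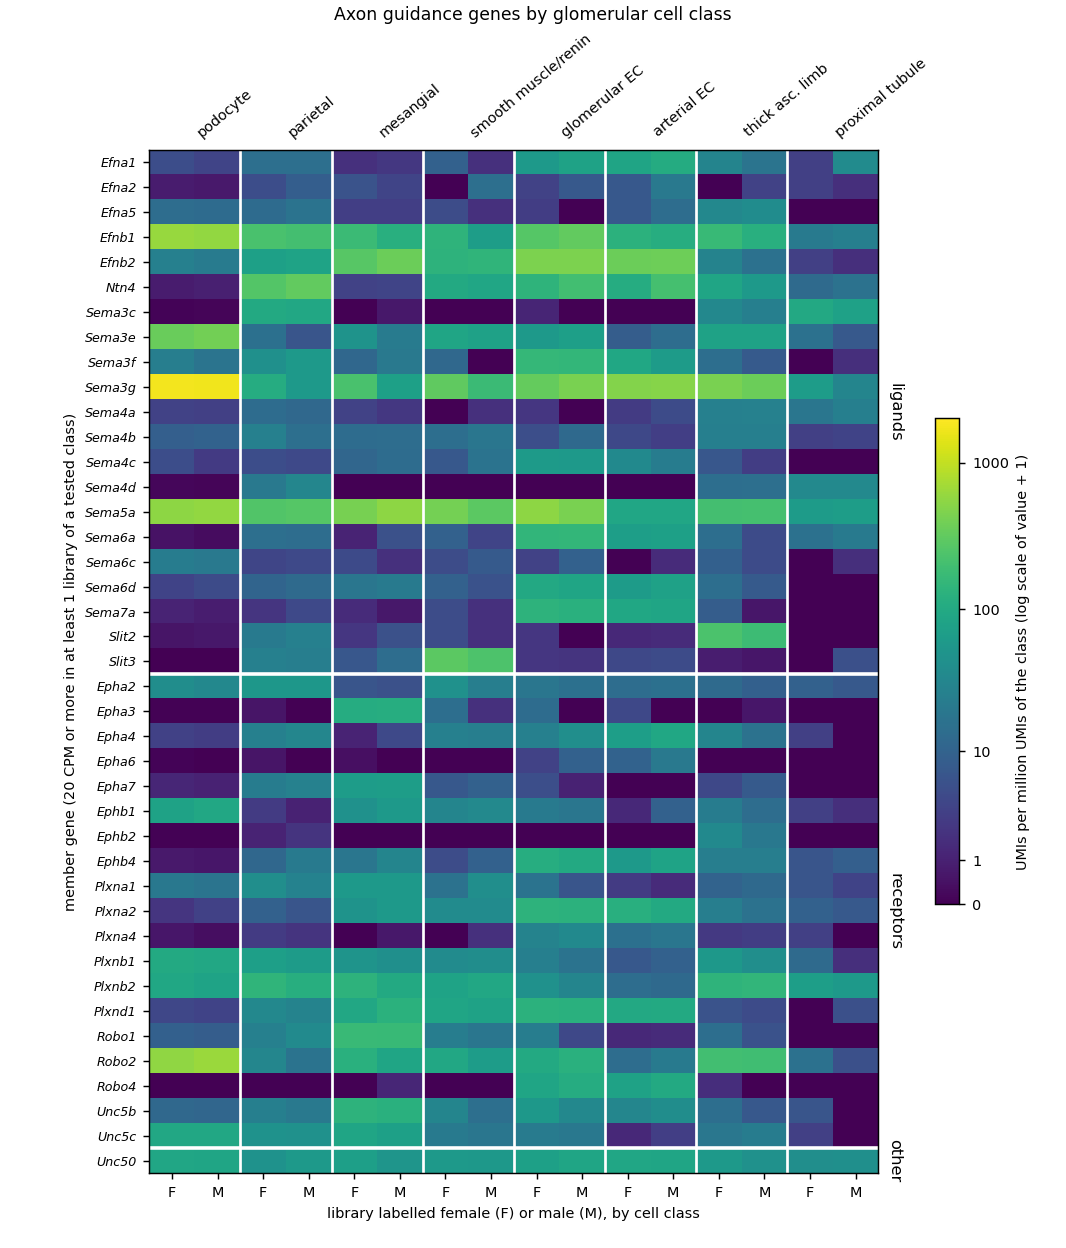
Level of 41 members (21 ligands, 19 receptors and Unc50) that reached 20 CPM in at least 1 library of a tested class, in CPM on a log scale of the value plus 1, in each class and library (F and M, labelled female and male). The 2 libraries of a class resemble each other, and Sema3g in podocytes, at 1746 and 1712 CPM, is the brightest pair.

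**Figure D2:**
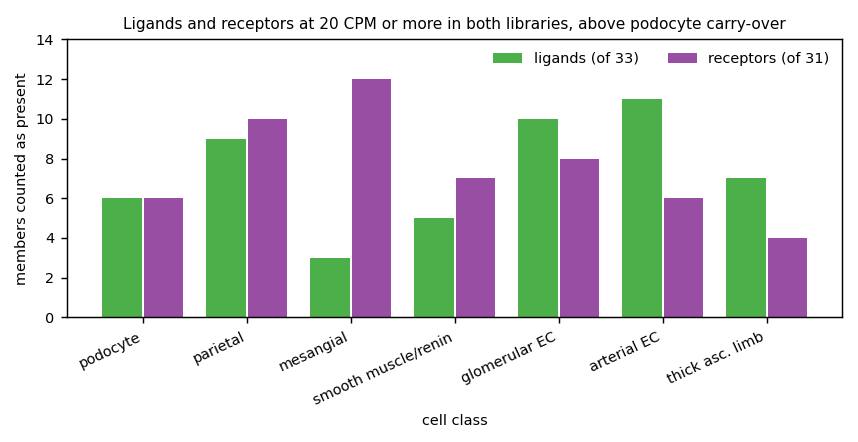
Number of ligands (of 33) and receptors (of 31) counted as present in each of the 7 tested classes, at 20 CPM or more in both libraries and above podocyte carry-over. The mesangial class has 3 ligands and 12 receptors and the arterial endothelial class 11 ligands and 6 receptors.

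Each class was tested against the mean of the other 6 with edgeR on UMIs summed per library and class. The sums held from 417775 UMIs (smooth muscle or renin cells) to 44232521 (podocytes). The fit covered 11892 genes, of which 46 were members (25 ligands, 20 receptors and Unc50). The 23 untested members reached at most 10.5 CPM in any of the tested classes. A member was called at a Benjamini-Hochberg adjusted p under 0.05 and a difference of at least 2-fold. The classes were defined from other genes of the same cells, so the test does not test whether the classes exist. It sets a class difference against how far class differences varied between the 2 mice, with the mouse as a block. In podocytes 12 of the 46 members were higher, against 9.8% of all genes tested, and 20 were lower, against 13.4%. The median log2 difference of the members was -1.75, and that of all genes 0.02. That median includes unstable estimates of members with no UMI in some class, such as Epha7 (-1.75, SE 315) and Sema3c (-2.72, SE 209). Arterial endothelium had 18 members higher (background 11.4%) and 12 lower (8.63%), and glomerular endothelium 16 higher (11.6%) and 3 lower (3.45%). In mesangial cells 11 were higher (11.5%), 9 of 20 receptors and 2 of 25 ligands, and 9 were lower (5.64%). The thick ascending limb had 13 higher (16%), 10 of 25 ligands and 3 of 20 receptors, and 5 lower (6.79%). Parietal cells had 10 higher (14.6%) and 6 lower (6.1%), and smooth muscle or renin cells 5 higher (8.84%) and 2 lower (2.82%). The share of members called higher was thus 10.9% to 39.1%, nearest to the background in smooth muscle or renin cells.

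**Figure D3:**
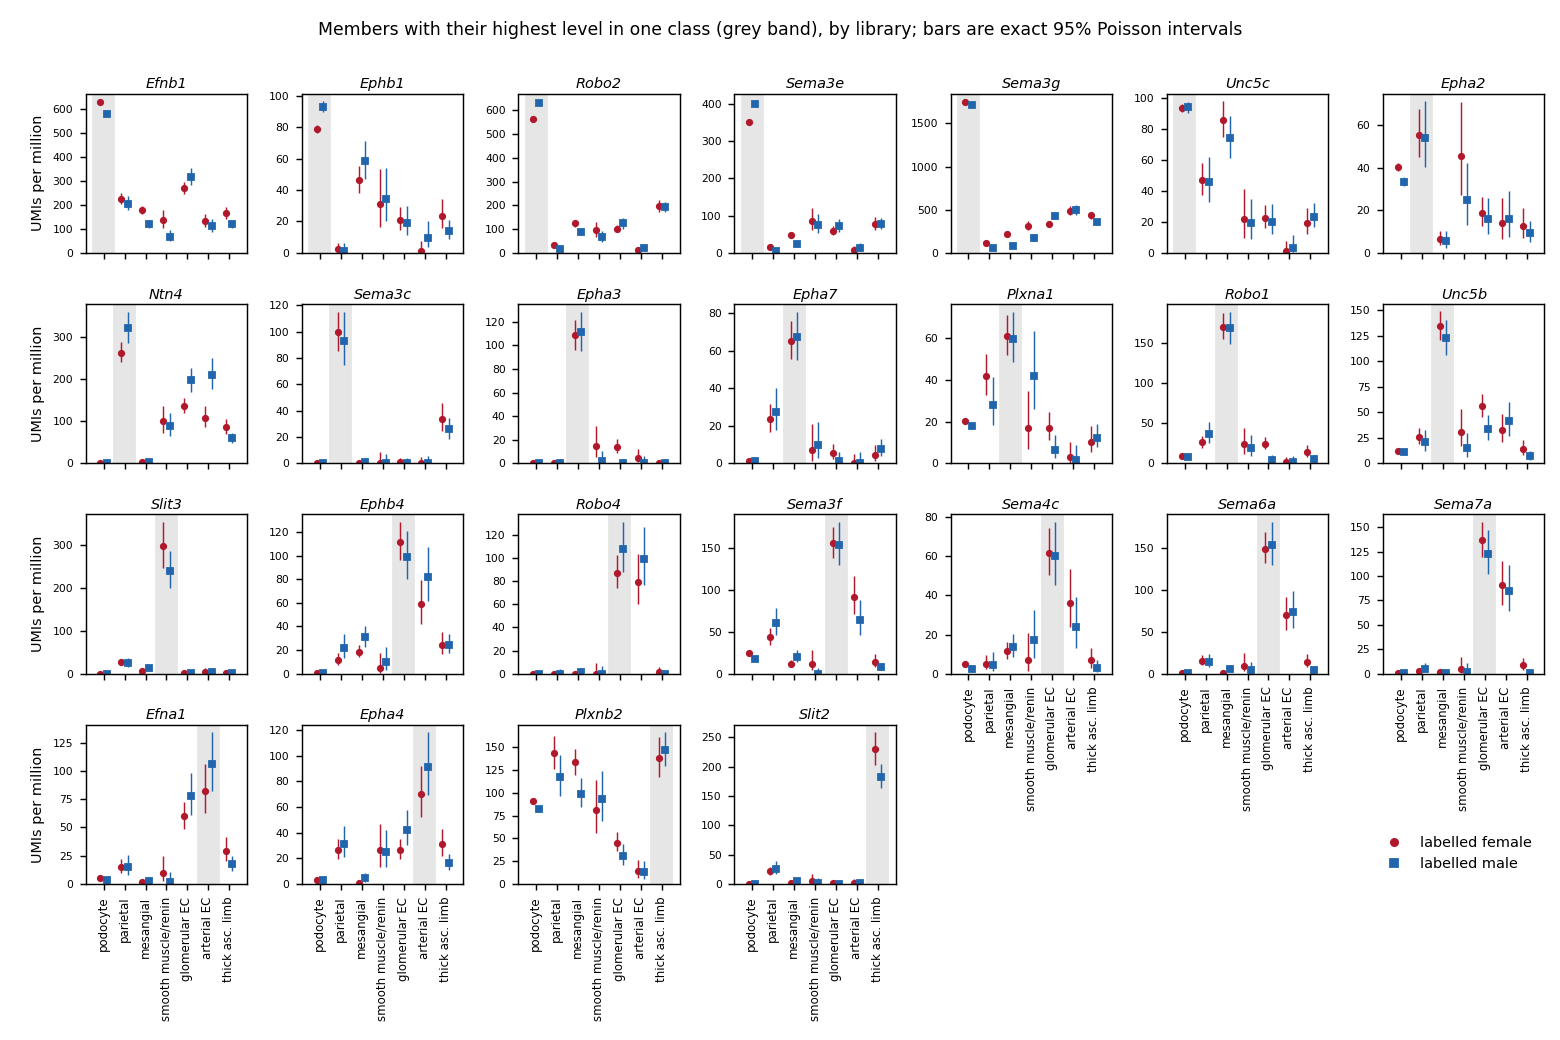
Level of 25 members in the 7 tested classes, in CPM with exact 95% Poisson intervals, each panel with its own axis from 0 and a grey band on the class with the highest mean. Robo4 lies at 79.8 to 108 CPM in the 2 endothelial classes, while Plxnb2 spans from 12.6 CPM in arterial endothelium to 147 CPM in the thick ascending limb.

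Of the 4 tested secreted semaphorins, Sema3g and Sema3e had their highest level in podocytes, Sema3c in parietal cells and Sema3f in glomerular endothelium. Sema3g was at 1746 and 1712 CPM in podocytes, at 484 and 497 in arterial endothelium and between 60.7 and 433 in the other tested classes. It was 2.91 ± 0.27 (SE) higher in podocytes on the log2 scale (edgeR adjusted p = 0.000105), with both podocyte values above every other value. Sema3e, which binds plexin D1 directly, was at 351 and 400 CPM in podocytes and at 6.5 to 86.2 elsewhere, a log2 difference of 3.48 ± 0.16 (edgeR adjusted p = 3.36e-09). Sema3c was at 99.5 and 93.2 CPM in parietal cells, 33.8 and 25.8 in the thick ascending limb and 98.4 and 76.3 in the few proximal tubule cells. In podocytes it was at 0.0678 and 0.125 CPM, and no UMI was found in arterial endothelial or smooth muscle or renin cells (edgeR adjusted p = 1.58e-13 for parietal cells against the others). Sema3f had its highest level in glomerular endothelium at 156 and 155 CPM (log2 difference 2.83 ± 0.24, edgeR adjusted p = 4.41e-06), followed by arterial endothelium at 92.4 and 64.7 and parietal cells at 43.9 and 60.7. The arterial and parietal ranges did not overlap but were close.

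Of the 11 tested membrane-bound semaphorins, 5 had their highest mean level in glomerular endothelium (Sema4c, Sema6a, Sema6b, Sema6d and Sema7a). The other 6 had it in an epithelial class: Sema4a, Sema4b and Sema4g in the thick ascending limb, Sema4d in parietal cells and Sema5a and Sema6c in podocytes. Sema7a, a lipid-anchored semaphorin, was at 137 and 123 CPM in glomerular and 91 and 85.2 in arterial endothelium, and at no more than 8.45 in any other tested class. Its log2 difference was 4.94 ± 0.22 in glomerular endothelium (edgeR adjusted p = 2.08e-13). Sema6a, a transmembrane ligand of plexin A2 and A4, was at 150 and 155 CPM in glomerular and 70.0 and 74.1 in arterial endothelium, and at 0.452 and 0.282 in podocytes. Sema6d (96.3 and 86.3 CPM) and Sema4c (61.7 and 60.0) had the same order of glomerular over arterial endothelium (64.4 and 77.3; 36.4 and 23.7). All 4 were called higher in both endothelial classes, with adjusted p from edgeR between 0.000678 and 2.08e-13. Sema4d, known as the ligand of plexin B1, was at 20.6 and 31.4 CPM in parietal cells, 14.4 and 15.2 in the thick ascending limb and 34.9 and 34.5 in proximal tubule cells. It had no UMI in mesangial, smooth muscle or renin or either endothelial class. Sema6c reached 23.4 and 20.7 CPM in podocytes and no more than 9.47 elsewhere (log2 difference 2.66 ± 0.24, edgeR adjusted p = 4.02e-09).

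Sema5a was present in every tested class, with its lowest level in arterial endothelium. It was at 546 and 591 CPM in podocytes, 553 and 427 in glomerular endothelium, 425 and 542 in mesangial cells, 409 and 297 in smooth muscle or renin cells, 256 and 270 in parietal cells and 206 and 212 in the thick ascending limb. The ranges of podocytes, glomerular endothelium and mesangial cells overlapped. Arterial endothelium stood below all of them at 89.6 and 89.9 CPM, a log2 difference of -2.02 ± 0.15 (edgeR adjusted p = 1.06e-09).

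Among plexins, the semaphorin receptors, Plxnd1 and Plxnb1 had nearly opposite orders. Plxnd1, the receptor of Sema3e, was at 132 and 123 CPM in glomerular endothelium, 94.1 and 128 in mesangial cells, 96.6 and 101 in arterial endothelium and 86.2 and 80.0 in smooth muscle or renin cells. It was at 33.4 and 29.3 CPM in parietal cells, 5.91 and 4.69 in the thick ascending limb and 4.02 and 3.67 in podocytes, where the log2 difference was -3.65 ± 0.19 (edgeR adjusted p = 5.91e-13). The Sema3e-high class was therefore the class with the lowest Plxnd1. Plxnb1 was at 99.3 and 94.6 CPM in podocytes, 72.3 and 64.0 in parietal cells and 7.0 and 9.46 in arterial endothelium, and it was higher in podocytes by 1.68 ± 0.10 (edgeR adjusted p = 9.43e-12). Plxnb2 was at 138 and 147 CPM in the thick ascending limb and at 143 and 117 in parietal cells, values that overlap, and at 14 and 12.6 in arterial endothelium. Plxna2 was endothelial first (134 and 130 CPM in glomerular, 122 and 101 in arterial cells) and was at 2.24 and 3.32 in podocytes. Plxna1 was highest in mesangial cells at 61.0 and 59.7 CPM (log2 difference 2.04 ± 0.21, edgeR adjusted p = 1.07e-07). Plxna4 was at 28.8 and 35.8 CPM in glomerular endothelium and at most 18.9 elsewhere. Plxna4 overlaps its antisense transcripts on the other strand, and the deposited counts hold them as separate entries. No source used here says whether strand was used in that count, so how reads in the shared bases were assigned was not checked. Of the tested members, 15 overlap a gene on the opposite strand, Sema3e, Sema5a, Ntn4, Slit2 and Ephb1 among them.

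Of the ephrin-A ligands, Efna1 was present in the 2 endothelial classes and Efna5 in the thick ascending limb, and no other was present in any class. The EphA receptors described here had their highest levels in mesangial, parietal or arterial endothelial cells. Efna1, a lipid-anchored ephrin, was at 82.6 and 106 CPM in arterial and 59.9 and 77.8 in glomerular endothelium, and the arterial log2 difference was 3.21 ± 0.25 (edgeR adjusted p = 1.15e-09). In podocytes it was at 5.09 and 3.79 CPM. Efna5 was at 33.8 and 39.3 CPM in the thick ascending limb and at no more than 17.3 in the other classes (log2 difference 2.79 ± 0.27, edgeR adjusted p = 1.79e-08). Epha3, a receptor kinase, was at 109 and 111 CPM in mesangial cells and at no more than 14.4 in any other class; it was at 0.0452 and 0.0313 in podocytes (edgeR adjusted p = 1.41e-07). Epha7 was at 65.2 and 67.0 CPM in mesangial and 23.4 and 27.1 in parietal cells, with 1.29 and 1.07 in podocytes (mesangial log2 difference 4.82 ± 0.26, edgeR adjusted p = 7.32e-12). Epha2 was at 55.6 and 54.2 CPM in parietal cells and 40.2 and 33.6 in podocytes. Its log2 differences there were 1.59 ± 0.17 and 1.14 ± 0.12 (edgeR adjusted p = 1.23e-07 and 6.54e-08). It was also present in smooth muscle or renin cells, where 1 value (45.5 CPM, the other 24.8) lay among those of parietal cells and podocytes. Without the mixed cells defined below, Epha2 was newly called higher in smooth muscle or renin cells and lower in the thick ascending limb. Epha4 was at 70.0 and 91.5 CPM in arterial endothelium, at 26.4 and 42.1 in glomerular endothelium and at 26.1 and 31.4 in parietal cells.

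The 2 ephrin-B ligands had different places. Efnb1, the ephrin known at the slit diaphragm, was at 627 and 579 CPM in podocytes, 271 and 318 in glomerular endothelium and 226 and 206 in parietal cells, with a podocyte log2 difference of 2.0 ± 0.12 (edgeR adjusted p = 7.62e-10). Efnb2 was at 452 and 449 CPM in glomerular endothelium, 360 and 377 in arterial endothelium, 278 and 357 in mesangial cells, 136 and 143 in smooth muscle or renin cells and 74.5 and 82.4 in parietal cells. It was at 26.3 and 22.6 CPM in podocytes and 28.7 and 15.8 in the thick ascending limb, where the log2 differences were -2.55 ± 0.14 and -2.73 ± 0.19 (edgeR adjusted p = 1.03e-11 and 2.97e-10). The levels of neighbouring classes in this order did not overlap, except those of podocytes and the thick ascending limb. Among the receptors, Ephb4, the partner of ephrin-B2, was at 112 and 98.9 CPM in glomerular and 58.8 and 82.0 in arterial endothelium, and at 0.701 and 0.595 in podocytes (glomerular log2 difference 3.06 ± 0.17, edgeR adjusted p = 5.5e-12). Ephb1 was at 78.9 and 93.0 CPM in podocytes and 46.1 and 58.4 in mesangial cells, with 2.78 and 1.08 in parietal cells (podocyte log2 difference 2.7 ± 0.15, edgeR adjusted p = 1.4e-12). Ephb2 was found in the thick ascending limb at 36.3 and 19.9 CPM and at no more than 2.17 elsewhere.

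The 2 tested Slits had their highest levels in the thick ascending limb and in smooth muscle or renin cells, and both were also present in parietal cells. Of the 3 tested Robo receptors, Robo1 was present in mesangial and parietal cells, Robo2 in podocytes, mesangial cells and the thick ascending limb, and Robo4 in the 2 endothelial classes. Slit2 was at 230 and 183 CPM in the thick ascending limb and 21.7 and 26.0 in parietal cells, and at no more than 5.54 in the other classes (log2 difference 6.40 ± 0.18, edgeR adjusted p = 3.28e-17). Slit3 was at 297 and 240 CPM in smooth muscle or renin cells, 26.1 and 24.9 in parietal cells and 6.86 and 14.1 in mesangial cells (edgeR adjusted p = 1.54e-15 for smooth muscle or renin cells). Podocytes had no UMI of Slit3, which allows up to 0.0678 and 0.0940 CPM at 3 counts. No Slit was present in podocytes, mesangial cells or endothelium. Robo2, the receptor of Slit2, was at 566 and 631 CPM in podocytes, a log2 difference of 3.25 ± 0.12 (edgeR adjusted p = 3.89e-12). It was at 198 and 193 CPM in the thick ascending limb, 124 and 87.3 in mesangial cells and 101 and 124 in glomerular endothelium, where that level was under podocyte carry-over. Robo1 was at 171 and 169 CPM in mesangial cells and at no more than 36.9 in other classes (log2 difference 3.94 ± 0.21, edgeR adjusted p = 6.43e-09). Robo4, known from endothelium, was at 87.5 and 108 CPM in glomerular and 79.8 and 99.4 in arterial endothelium (edgeR adjusted p = 5.5e-12 and 6.54e-11). The 2 endothelial ranges overlapped, and Robo4 had no UMI in podocytes, parietal cells or smooth muscle or renin cells. In the GENCODE M21 annotation of GRCm38, Robo4 spans chr9:37401897-37415115, Slit2 chr5:47983138-48307733 and Slit3 chr11:35121224-35708507, while Robo1 (chr16:72308306-73046095) and Robo2 (chr16:73891839-74411825, minus strand) lie on the same chromosome.

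Of the netrins, Ntn4, which binds laminin, was in all classes but podocytes and mesangial cells. It was at 264 and 323 CPM in parietal cells, 137 and 198 in glomerular endothelium, 109 and 211 in arterial endothelium, 100.5 and 89.5 in smooth muscle or renin cells and 86.2 and 60.4 in the thick ascending limb. Parietal cells were above all others (log2 difference 3.24 ± 0.16, edgeR adjusted p = 6.76e-09), and the 2 endothelial ranges overlapped. In podocytes it was at 0.791 and 0.940 CPM and in mesangial cells at 3.43 and 3.69, called lower in both (-6.34 ± 0.34 and -4.13 ± 0.36 on the log2 scale, edgeR adjusted p = 5.66e-09 and 1.34e-06). Of the Unc5 receptors, Unc5b was at 134 and 122 CPM in mesangial cells and 55.8 and 33.7 in glomerular endothelium (mesangial log2 difference 2.48 ± 0.13, edgeR adjusted p = 2.88e-12). Unc5c was at 93.3 and 93.7 CPM in podocytes, 85.7 and 73.8 in mesangial cells and 46.7 and 45.5 in parietal cells, and at 1.40 and 3.15 in arterial endothelium. It was called higher in podocytes (2.26 ± 0.11) and in mesangial cells (1.84 ± 0.14, edgeR adjusted p = 4.18e-13 and 9.38e-10).

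Podocyte and parietal cells, the 2 epithelia of the glomerulus, were 1 of 3 class pairs tested. In parietal cells 23 of the 46 members were higher than in podocytes, against 20.6% of all genes, and 8 were lower, against 9.79%. The 23 were 15 ligands and 8 receptors, among them Ntn4 and Sema3c, described above, and Slit2 (log2 difference 5.14 ± 0.36, edgeR adjusted p = 9.95e-11). Efnb2 was higher by 1.5 ± 0.18 (edgeR adjusted p = 6.14e-07) and Plxnd1 by 2.88 ± 0.23 (edgeR adjusted p = 8.32e-10). The 8 lower were Ephb1 (-5.41 ± 0.36, edgeR adjusted p = 4.39e-11), Sema3e, Robo2 (-4.69 ± 0.23, edgeR adjusted p = 1.29e-10), Sema3g, Sema6c, Efnb1, Sema5a and Unc5c. These are also 8 of the 12 members called higher in podocytes, a comparison that shares the podocyte sums. Epha2, which was called higher in both epithelia against the other classes, differed between them by 0.39 ± 0.16 (edgeR adjusted p = 0.0475), under the 2-fold limit.

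Mesangial and smooth muscle or renin cells, the 2 mural classes, differed in 13 members: 7 were higher in mesangial cells (6.21% of all genes) and 6 lower (5.9%). The 7 were Epha3, Robo1 (2.87 ± 0.41, edgeR adjusted p = 0.000241), Epha7, Unc5b (2.39 ± 0.29, edgeR adjusted p = 3.07e-06), Unc5c, Ephb4 and Efnb2, so 6 were receptors. The 6 lower were Slit3 (-4.88 ± 0.25, edgeR adjusted p = 3e-11), Ntn4 (-4.82 ± 0.47, edgeR adjusted p = 1.1e-05), Ntn1, Epha4, Epha2 and Sema3e, of which 4 were ligands. The podocyte share was 15.6% and 7.05% in mesangial and 21.4% and 12.8% in smooth muscle or renin cells, and the calls of Efnb2, Ephb4 and Sema3e were lost without the mixed cells defined below.

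Glomerular against arterial endothelium had 8 members higher (4.82% of all genes) and 2 lower (2.92%). Sema5a was the clearest, higher by 2.35 ± 0.17 (edgeR adjusted p = 2.32e-08), and Epha4 was lower by 1.39 on the log2 scale (SE 0.31, edgeR adjusted p = 0.00453), as was Efna5. The other 7 higher members were Unc5c, Robo2, Sema3e, Ephb1, Plxnb2, Plxnb1 and Efnb1, 6 of which were also called higher in podocytes. The share of podocyte markers moved with them, being 22.0% and 26.7% of the podocyte level in glomerular and 11.8% and 11.4% in arterial endothelium. Glomerular endothelium of the library labelled female also held mesangial markers, 7 of 7 at 20 CPM or more and 1178 CPM in sum, against 1 of 7 and 99.9 CPM in the library labelled male.

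These values were set beside a count without mixed cells, a choice made after seeing the data. Cells outside podocytes with 5 or more UMIs of selected podocyte markers, or cells outside the mural classes with 2 or more UMIs of Itga8, were left out, which by construction lowers podocyte genes. Of the 8 members higher in glomerular than in arterial endothelium, 1 was still called, Sema5a, at 549 and 403 CPM. Sema6a was newly called higher, and Sema3g newly called lower, with 89.5 and 119 CPM in glomerular against 462 and 428 in arterial endothelium (log2 difference -2.17, edgeR adjusted p = 3.94e-08). Sema3g thus kept its arterial level and was called higher there against the other classes (3.01, edgeR adjusted p = 2.3e-14; with all cells 0.73 and 0.157). Robo2 was at 0.983 and 0 CPM in glomerular endothelium and at 0 and 2.32 in smooth muscle or renin cells, and at 88.6 and 96.5 in the thick ascending limb and 53.1 and 59.6 in mesangial cells, where it was called higher in both. Sema3e was at 4.64 CPM or less in each class other than podocytes. Efnb1 was at 199 and 244 CPM in glomerular endothelium and 209 and 199 in parietal cells. Slit2 was at 282 and 235 CPM in the thick ascending limb and Robo4 at 106 and 141 in glomerular endothelium. Of the 12 members higher in podocytes 11 were still called, Plxna3 being the exception, and all 11 in mesangial cells and all 10 in parietal cells. Of the members called lower, 3 of 6 were still called in parietal cells (Ephb1, Robo2 and Sema3e were not), 8 of 12 in arterial endothelium and 17 of 20 in podocytes.

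**Figure D4:**
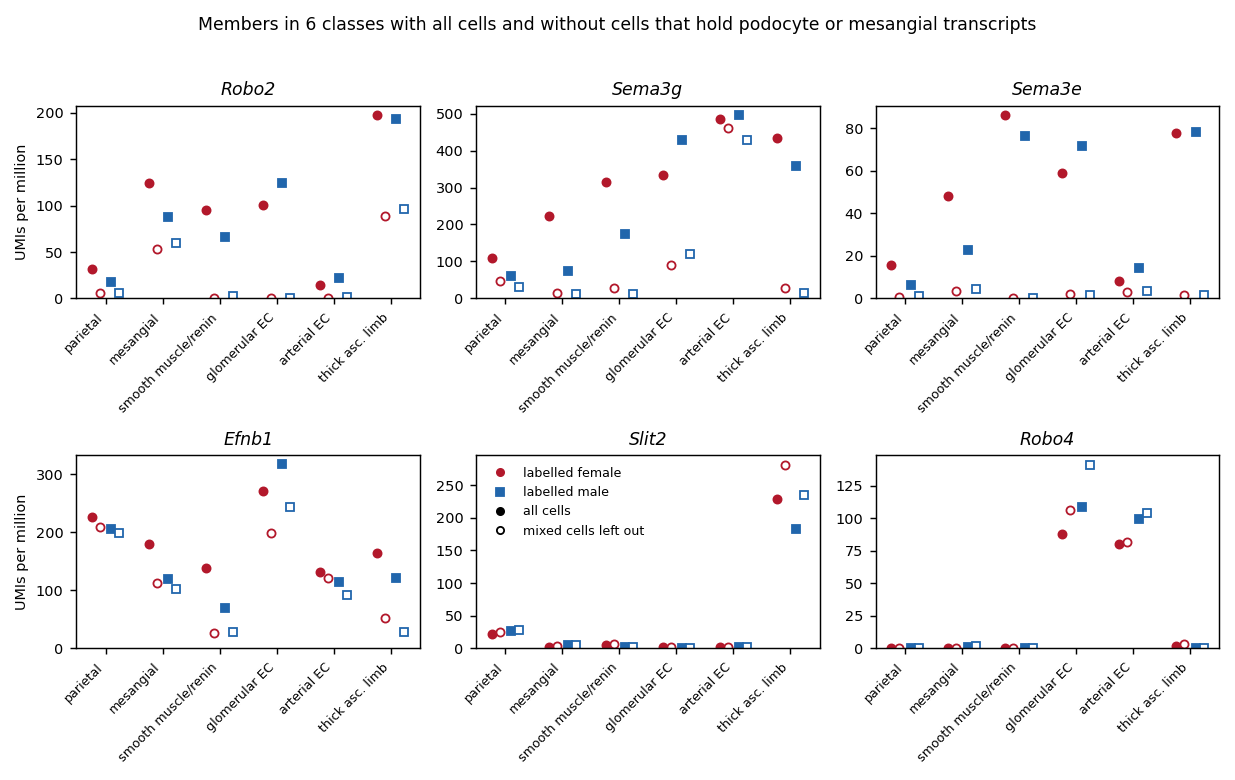
Level of 6 members, in CPM, in the 6 tested classes other than podocytes, with all cells (filled) and without cells that hold podocyte or mesangial UMIs (open), for the library labelled female (circles) and male (squares). Sema3g stays at 462 and 428 CPM in arterial endothelium and Robo2 at 88.6 and 96.5 CPM in the thick ascending limb, while Sema3e is at 4.64 CPM or less in each class.

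Podocytes fell into 6 larger clusters, and most members varied little among them. The highest cluster was 1.32 and 1.24 times the lowest for Sema3g, 1.28 and 1.21 times for Robo2, 1.19 and 1.22 times for Efnb1 and 1.10 and 1.27 times for Unc5c. Efnb2 and Epha2 varied most. Efnb2 was at 4.81 and 7.48 CPM in the cluster led by Mylk3 and Myl7 and at 42.5 and 39.6 in the cluster led by Wnt4 and Loxl2, a ratio of 8.85 and 5.30. Sema3g (2103 and 1946 CPM) and Sema3e (454 and 471) had their highest level in that Mylk3 cluster. Epha2 was at 17.3 and 14.1 CPM in its lowest cluster and at 74.5 and 88.1 in a cluster led by early-response genes such as Atf3, Maff and Nr4a1; the cluster led by Egr1 came next. These clusters were defined from the same cells, so the values are a description with no test.

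An unnamed cluster of 159 and 138 cells, in which all 12 podocyte markers counted but whose leading genes were Cst12, Lsp1, Igfbp6 and Dkk3, differed from the podocyte clusters in several members. Sema3g was at 1011 and 1057 CPM there, Sema3e at 181 and 208, Robo2 at 363 and 382 and Ephb1 at 37.9 and 50.3, all below each of the 6 podocyte clusters. Ntn4 was at 133 and 105 CPM, Efnb2 at 93.9 and 111 and Plxnd1 at 31.9 and 27.2, all above each podocyte cluster. These 7 members were chosen after their values were seen. For each of them the cluster lay on the parietal side of the podocyte clusters. That direction was not particular to parietal cells, as glomerular endothelium lay on the same side, with Sema3g at 333 and 429 CPM and Ntn4 at 137 and 198. Ntn4 in the cluster was between the podocyte and the parietal level, and Efnb2 above both. Efnb1 (574 and 531 CPM) stood within the range of the podocyte clusters and Unc5c (118 and 117) above it, both away from the parietal level. Its median of 10528 UMIs per cell lay within the 9079 to 12232 of the 6 podocyte clusters.

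**Figure D5:**
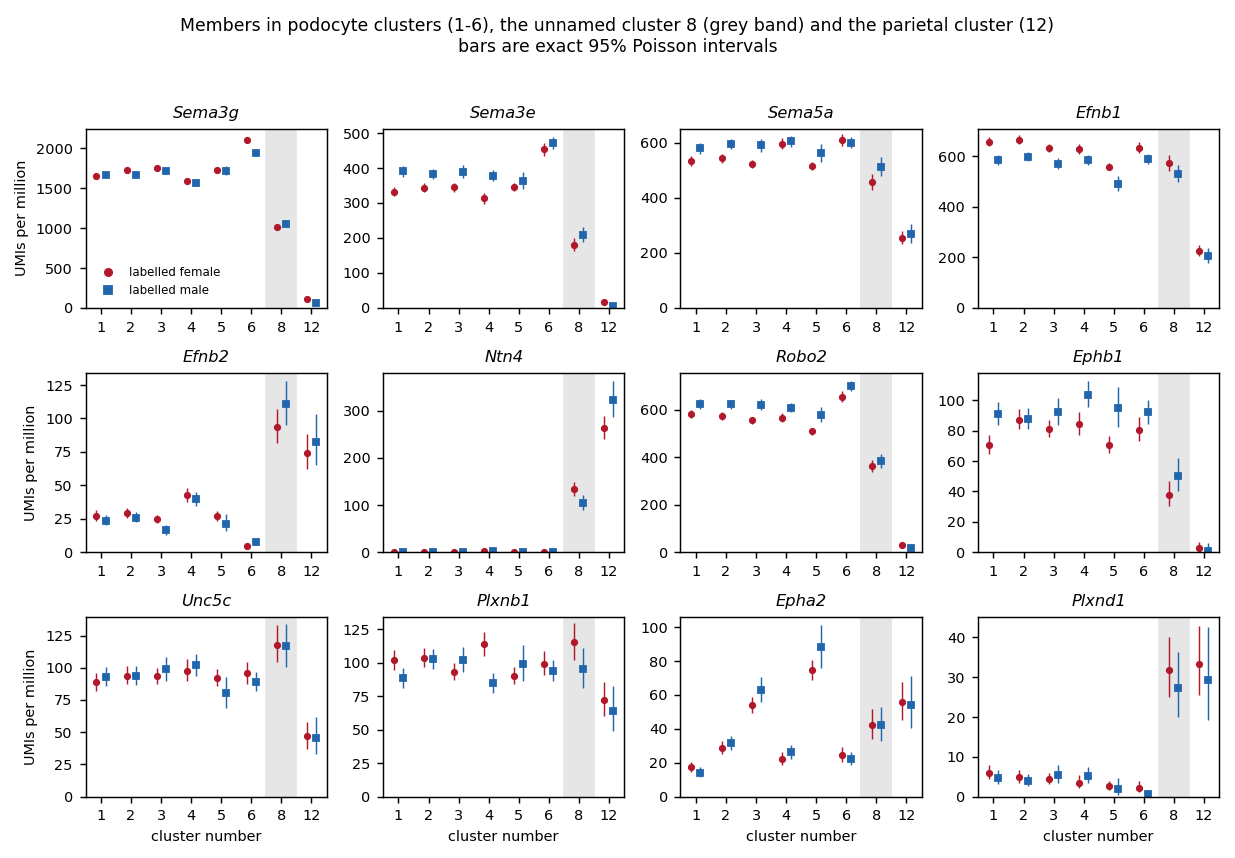
Level of 12 members in the 6 podocyte clusters (1 to 6), the unnamed cluster 8 (grey band) and the parietal cluster 12, in CPM with exact 95% Poisson intervals, by library. Ntn4 is at 133 and 105 CPM in cluster 8, between the podocyte clusters near 0 and the parietal cluster at 264 and 323, and Epha2 peaks in cluster 5.

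The library labelled female was set against the library labelled male within each class. With 1 library per group there is no replicate check and no test, and the intervals cover counting error only. Among members at 50 CPM or more in the higher library, 0 of 10 differed by 1.5-fold or more in podocytes, where 1.15% of all genes at that level were higher and 0.337% lower. The number was 0 of 10 in the thick ascending limb (3.35% and 3.93%). In mesangial cells 2 of 16 were higher in the library labelled female (3.57%; 3.43% of all genes lower): Sema3g at 224 and 75.0 CPM (ratio 2.99, interval 2.45 to 3.66) and Efnb1 at 179 and 119 (1.5, 1.27 to 1.79). In smooth muscle or renin cells the same 2 of 11 members were higher (10.3% and 7.99%), Efnb1 by 2.03 (1.31 to 3.16) and Sema3g by 1.80 (1.37 to 2.38). In parietal cells Sema3g alone of 11 was higher (3.68% and 2.67%), at 110 and 60.7 CPM (1.81, 1.34 to 2.49). The podocyte share of these 3 classes was also higher in the library labelled female (15.6% and 7.05%, 21.4% and 12.8%, 8.52% and 5.52%), and without the mixed cells no member differed by 1.5-fold there. Unc5b was 1 of 19 in glomerular endothelium (4.78% and 2.66%), at 55.8 and 33.7 CPM (1.66, 1.10 to 2.56), and at 34.4 and 40.1 without the mixed cells. Ntn4 in arterial endothelium was 1 of 16 and the only member lower in the library labelled female (4.59% of all genes higher and 7.27% lower), at 109 and 211 CPM (0.516, 0.386 to 0.688). It was at 117 and 231 CPM without the mixed cells.

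Other genes of these pathways came from a list of 24 co-receptors and further ligands or receptors, 15 of them tested, and 63 signalling genes, 59 tested. In mesangial cells 6 of the 15 and 14 of the 59 were higher (11.5% of all genes) and 3 and 2 lower (5.64%). In parietal cells 6 and 16 were higher (14.6%) and 3 and 6 lower (6.1%), and in podocytes 4 and 10 higher (9.8%) and 4 and 12 lower (13.4%). Glomerular endothelium had 5 and 10 higher (11.6%) and 2 and 3 lower (3.45%), and arterial endothelium 3 and 11 higher (11.4%) and 2 and 10 lower (8.63%). Smooth muscle or renin cells had 3 and 11 higher (8.84%) and 2 and 3 lower (2.82%), and the thick ascending limb 4 and 10 higher (16%) and 4 and 8 lower (6.79%). Nrp1, the neuropilin co-receptor of secreted semaphorins, was at 2416 and 2094 CPM in glomerular endothelium and 2242 and 2602 in mesangial cells, called higher in both, and at 200.1 and 199 in podocytes, where it was lower (-1.73 ± 0.20, edgeR adjusted p = 0.000131). Nrp2 was at 158 and 173 CPM in parietal cells and 3.28 and 2.60 in podocytes (parietal log2 difference 3.33 ± 0.16, edgeR adjusted p = 2.75e-13). Glomerular endothelium and mesangial cells were called higher in Nrp2 as well, and smooth muscle or renin cells and the thick ascending limb lower. Podocytes, the class with the most Sema3g and Sema3e, thus were called lower in both neuropilins and in Plxnd1. Srgap1, a GTPase-activating protein that binds Robo receptors, was at 907 and 907 CPM in podocytes and at no more than 208 elsewhere (3.02 ± 0.21, edgeR adjusted p = 8.45e-06). Its relative Srgap2 (138 and 139 CPM; 1.17 ± 0.08, edgeR adjusted p = 8.31e-11) and the kinase Fyn (284 and 284 CPM; 1.90 ± 0.09, edgeR adjusted p = 1.01e-13) were higher in podocytes too. Met, a receptor kinase that associates with plexins B, was at 205 and 230 CPM in parietal cells and 75.2 and 92.0 in the thick ascending limb, and at 0.226 and 0.376 in podocytes. Met was called higher in parietal cells, the thick ascending limb and arterial endothelium. Arhgef15, an exchange factor downstream of Eph receptors, was at 206 and 202 CPM in glomerular and 153 and 156 in arterial endothelium. Besides both endothelial classes, mesangial cells were called higher in Arhgef15, also against smooth muscle or renin cells.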

How the data were processed

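The authors deposited 1 table of raw UMI counts per library. The submitters' processing notes name Cell Ranger 6.1.2, STAR 2.7.5a and mm10, with no role given; the annotation, strand and cell calling were not stated there. The labels name 1 mouse per library, suspensions of 95% viability and NextSeq500 sequencing.

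Cells with at least 500 genes and at most 20% mitochondrial counts were kept (9351; depth ranges are in the report). Scrublet called 2 and 1 cells as doublets, too few to have worked, and no doublet was removed; an alternative left out the top 5% of scores. With the member genes left out, 2000 variable genes, 30 principal components, 20 neighbours and Leiden resolution 1.0 gave 18 clusters, named from marker lists (scanpy 1.11.5, leidenalg 0.10.2, Python 3.11.15).

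Counts were summed per library and class (14 sums) and tested with edgeR 4.0.16 in R 4.3.3 (quasi-likelihood, TMM scaling, the mouse as a block since each mouse gave every class, 6 residual degrees of freedom). The test scripts were tested on simulated data. Adjusted p-values are Benjamini-Hochberg over all genes tested. Poisson and ratio intervals are exact, at 95%, and cover counting error only.

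The members, marker lists and pathway lists were chosen with earlier results of these data known. Named by rule were, per class, up to 6 members with their highest mean level there, at 50 CPM or more in both libraries and above podocyte carry-over, taken by log2 difference; for each ligand family the ligand and receptor with the highest level per class; and members past 1.5-fold between libraries. Other members named were chosen after their values were seen. Alternatives were resolutions 0.6 and 1.5, a mitochondrial limit of 10%, equal depth of 3000 UMIs per cell, naming by score, member genes used in the clustering, no carry-over condition, other scalings, no filter, DESeq2 1.42.0, no replicate block, other thresholds, leaving out a library, and, added after seeing the data, leaving out mixed cells. The level of 1 podocyte marker used in these steps is not reported here.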

Additional observations from a re-analysis of the deposited data

How the results depend on the processing

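The 25 members named by rule were picked in these same data by level and log2 difference, so they do not stand for all members. Of 371 alternatives to their log2 differences, none turned a direction and 3 fell below the call limits. These were Robo4 in glomerular endothelium with DESeq2 (7.60, adjusted p = 0.0588), and Plxnb2 in the thick ascending limb at resolution 0.6 (0.96) and without the male replicate (0.88). Values from 1 library alone, such as 0.88, are differences in log2 of CPM plus 10 and not edgeR estimates. They were held to the 2-fold limit only. Of 254 alternatives to the 20 counts of members called, 222 stayed within 1.5 times. Changing how cells were grouped, thinned or removed moved most of the others, and small classes limit the depth; the cause was not tested. Parietal cells grew from 75 and 49 to 224 and 182 cells at resolution 0.6, with podocyte markers among them. At the 10% mitochondrial limit the parietal class likewise grew, to 218 and 177 cells. Arterial cells at resolution 0.6 and the thick ascending limb at the 10% limit were not tested, and leaving out a library leaves 1 sum per class and no test.

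Equal depth of 3000 UMIs per cell gave fewer calls. Higher members numbered 12 in parietal cells against podocytes, 6 in parietal cells, 6 in the thick ascending limb, 3 in smooth muscle or renin cells and 5 in glomerular against arterial endothelium. Lower members numbered 10 in podocytes, 7 in arterial endothelium, 3 in the thick ascending limb, 1 in smooth muscle or renin cells and 1 in glomerular against arterial endothelium. Lower members in glomerular endothelium numbered 12 at resolution 0.6, 12 at 1.5, 10 at the 10% mitochondrial limit, 8 without the top doublet scores and 8 without mixed cells. Lower members in arterial endothelium were 4 at resolution 1.5 and 5 at the 10% limit, and against glomerular endothelium those lower in the latter were 6 and 7. Parietal cells had 5 lower than podocytes at resolution 0.6 and at the 10% limit, and 3 lower than the mean at 0.6. Members higher in glomerular than arterial endothelium were 3 without the top doublet scores and 2 without mixed cells, and 9 members were lower in the thick ascending limb without mixed cells. Smooth muscle or renin cells had 1 lower at resolution 1.5, with DESeq2 and with RLE factors, and 8 higher and 4 lower with no filter. DESeq2 called 33 lower in podocytes, where its median over all genes was -0.58, and no scaling factors gave 17 higher in parietal cells (median over all genes 0.14).

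Members present in parietal cells were 13 at resolution 0.6 and at the 10% limit and 8 at 50 CPM. At 50 CPM 8 were present in smooth muscle or renin cells and 5 in the thick ascending limb, where 10 CPM gave 20. Using 1 library gave 13 to 20 members in the thick ascending limb (20 without the male replicate), 19 to 23 in glomerular and 18 to 20 in arterial endothelium, 16 to 19 in mesangial, 21 in parietal, 13 to 15 in podocyte and 14 to 17 in smooth muscle or renin cells.

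Members past the fold limit between libraries stayed at 0 in podocytes. A 2-fold limit gave 1 in mesangial and 1 in smooth muscle or renin cells and 0 elsewhere. Equal depth gave 6 in arterial endothelium, 5 in smooth muscle or renin, 4 in parietal and 3 in thick ascending limb cells. Glomerular endothelium had 2 at resolution 0.6, 3 at 1.5, 2 at the 10% limit, 4 without the top doublet scores and 2 without mixed cells. Arterial endothelium had 2 at resolution 1.5 and 2 without mixed cells. Mesangial cells had 1 at the 10% limit, 1 with naming by score and 0 without the top doublet scores or mixed cells. Parietal cells had 0 at resolution 0.6, at the 10% limit and without mixed cells. Smooth muscle or renin cells had 4 without the top doublet scores and 0 without mixed cells, and the thick ascending limb had 1 in both.

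Without the replicate block, that is without the mouse as a term, higher and lower members were 12 and 20 in podocytes, 12 and 6 in parietal, 11 and 10 in mesangial, 16 and 3 in glomerular endothelial, 19 and 12 in arterial endothelial, 5 and 2 in smooth muscle or renin and 13 and 5 in thick ascending limb cells. They were 23 and 8 in parietal against podocyte, 6 and 6 in mesangial against smooth muscle or renin and 8 and 2 in glomerular against arterial cells.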

Other observations

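Of the unnamed clusters, 1 was led by immune genes such as Lyz2, Ccl5 and Ptprc and held 20 and 58 cells of the libraries labelled female and male. Sema4d was at 58.4 and 88.4 CPM in it, Sema4a at 27.0 and 34.1 and Plxnc1, which was not tested in the glomerular classes, at 27.0 and 24.1. Plxnd1 was at 31.5 and 38.2 CPM and Plxnb2 at 62.9 and 48.2. Sema3g, the podocyte-high ligand, was at 297 and 92.4 CPM in the same cells. Sema4d was thus higher in value there than in the parietal class (20.6 and 31.4 CPM), with no test between them.

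The largest unnamed cluster, of 1441 cells, counted all 12 podocyte markers and was led by haemoglobin genes. Its levels of Sema3g (1730.5 and 1633 CPM), Robo2 (618 and 618) and Efnb1 (605 and 557) lay within the range of the named podocyte clusters of the same library.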
